A study of Mus musculus with 14 samples.

Results

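The genes described here were 10 that handle lactate, pyruvate and glucose. They included both somatic lactate dehydrogenase genes, Ldha and Ldhb, and the monocarboxylate carrier genes Slc16a1, Slc16a3 and Slc16a7. Bsg encodes a partner protein of the products of Slc16a1 and Slc16a3. The others were both subunits of the mitochondrial pyruvate carrier, Mpc1 and Mpc2, and the glucose carrier genes Slc2a1 and Slc2a3. The genes were taken by symbol from a count table of 56923 genes, where all 10 were present. RNA was sequenced from ICR mouse 2-cell embryos in 14 libraries, 2 for each of 7 conditions, and each library pooled 5 embryos. Early 2-cell embryos were taken 30 h after hCG, the hormone that triggers ovulation, and late 2-cell embryos 54 h after it. In 5 conditions the medium, mKSOM, held the LDHA and LDHB inhibitor Gne140 at 5 μM and NMN, a precursor of NAD+, at 50 μM. The G&N embryos of both stages also had lactate at 10 mM, and the G&N-L embryos of both stages had none. In a further late 2-cell condition, G&N-L + Lac-CoA, zygotes kept without lactate were injected with lactyl-CoA at 1 mM, while an injection of the G&N and G&N-L embryos is not described in the sources used here. The remaining conditions were late 2-cell embryos expressing injected mRNA of histone H3, either unmutated (WT) or with lysine 18 replaced (H3K18R), and their inhibitor and lactate are not given in the sources used here. Groups follow the sample titles. The treatment labels read otherwise for the early libraries, where G&N embryos are labelled with Gne140 alone and G&N-L embryos without mention of lactate, and for the Lac-CoA libraries, which are labelled CoA. The count columns taken as H3K18R are headed K18A, which names another replacement of the same lysine, so that the residue put in its place is uncertain here. All G&N and G&N-L embryos carried the inhibitor, so each comparison of lactate is one within inhibited embryos.

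Lactate dehydrogenase interconverts lactate and pyruvate and, with them, NADH and NAD+. The enzyme is a tetramer of A and B subunits, the products of Ldha and Ldhb. Oocytes and cleaving mouse embryos are known to take up lactate and pyruvate rather than glucose as fuels, and to inherit an LDH store rich in the B subunit from the oocyte. Monocarboxylate carriers move lactate and pyruvate across the plasma membrane with a proton, MPC1 and MPC2 together admit pyruvate to mitochondria, and GLUT1 and GLUT3, the products of Slc2a1 and Slc2a3, admit glucose. Gne140 acts on LDH protein, so transcript levels do not show whether the enzyme was blocked.

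An LDH gene and 2 plasma membrane carrier genes, Ldha, Slc16a1 and Slc2a3, are shown by the 250 bases before the start of their canonical transcripts. The sequence next to these transcripts can thus be compared. Each of these genes had its lowest late levels in G&N-L embryos. By condition means this also held for Mpc1 and Mpc2, whose late G&N-L libraries overlapped those of late G&N. The sequences were read from GRCm39 (mm39), 5′ to 3′ on the strand of the gene. Ldha lies on the plus strand, with its window at chr7:46495013-46495262. Slc16a1 lies on the plus strand (chr3:104545561-104545810) and Slc2a3 on the minus strand (chr6:122719705-122719954). Capitals mark matches, on either strand, to the E-box CACGTG, to either form of the hypoxia response core (ACGTG, which the E-box contains, and the related GCGTG), to the GC box GGGCGG, to the CCAAT box, to the TATA box TATAAA, to the Obox core GGATTA and to the Nr5a2 core TCAAGG.
Ldha: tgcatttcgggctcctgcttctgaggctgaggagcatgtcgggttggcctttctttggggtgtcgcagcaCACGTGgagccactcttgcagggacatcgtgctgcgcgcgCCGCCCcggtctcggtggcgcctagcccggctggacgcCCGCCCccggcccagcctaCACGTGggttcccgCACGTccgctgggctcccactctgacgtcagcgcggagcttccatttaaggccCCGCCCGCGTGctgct
Slc16a1: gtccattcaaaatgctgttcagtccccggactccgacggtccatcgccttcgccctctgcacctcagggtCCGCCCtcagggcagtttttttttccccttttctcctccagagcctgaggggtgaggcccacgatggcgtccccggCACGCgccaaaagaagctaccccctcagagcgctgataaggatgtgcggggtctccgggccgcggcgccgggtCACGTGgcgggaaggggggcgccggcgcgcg
Slc2a3: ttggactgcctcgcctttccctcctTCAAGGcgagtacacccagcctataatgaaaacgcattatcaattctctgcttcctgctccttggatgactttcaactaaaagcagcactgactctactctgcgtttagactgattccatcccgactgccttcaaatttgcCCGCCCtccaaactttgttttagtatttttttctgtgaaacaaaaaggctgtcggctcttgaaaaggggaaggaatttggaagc
The Ldha window held 2 E-boxes, 180 and 83 bases before the start, and 3 GC boxes, with a GC content of 68.8% and 26 CpG sites. In Slc16a1 there was 1 E-box, 31 bases before the start, and 1 GC box, with a GC content of 66.8%. In Slc2a3 there was 1 GC box and 1 Nr5a2 core, with a GC content of 45.2%. Hypoxia core matches, on both strands and including those inside E-boxes, numbered 6 in Ldha, 3 in Slc16a1 and 0 in Slc2a3. The E-box reads the same on both strands, so each E-box counts as 2 of these matches and the separate sites are fewer. Among 21770 windows of the same length, 6.26% held an E-box, 41.3% a hypoxia core, 36.3% a GC box, 36.5% a CCAAT box, 11.9% a TATA box, 7.0% an Obox core and 13.0% an Nr5a2 core, and the median GC content was 53.2%. These letters describe the windows, and no binding was measured here.

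Library totals ran from 20350427 to 61275465 counts. A summed level of 14 oocyte genes (the zona pellucida genes, Gdf9, Bmp15, Mos, Btg4, Nlrp5 and others) was 20963 to 28213 CPM (counts scaled to TMM-normalized library sizes) in the 4 early libraries, 13101 and 15022 CPM in late G&N, 16799 and 19223 CPM in late G&N-L, 14193 and 9876 CPM with Lac-CoA, 4024 and 8277 CPM in H3K18R, and 3641 and 3725 CPM in WT. Btg4, Oosp1 and Bmp15 had the highest levels of these oocyte genes in every library, at 15636, 3569 and 2444 CPM in early G&N-L replicate 1. The sum thus mostly follows them. From early to late G&N 13 of the 14 had a negative fitted fold change (log2), and 10 in G&N-L. Zp3 went the other way in H3K18R and WT, at 90.4 to 157 CPM against 31.0 to 65.2 CPM early. A summed level of 10 late 2-cell genes such as Zscan4d and Zfp352 was 570 to 961 CPM in the early libraries and 2234 to 3674 CPM in the late ones. Both sums thus separated the early from the late libraries, but not every gene followed its sum. Of the 10 late 2-cell genes, 9 had a positive fitted fold change (log2) from early to late G&N, and 10 in G&N-L. Tcstv1 was at 364 to 638 CPM in the early libraries and at 116 to 247 CPM in H3K18R and WT. Dppa2 was at 101 to 170 CPM early and at 105 to 135 CPM in late G&N-L and Lac-CoA. Genes of cumulus cells, which surround the oocyte, summed to 10.7 to 42.3 CPM over 18 genes. Amh and Inhba were at 0 in every library, while Cyp19a1 was at 13.3 to 22.9 CPM in the early ones. Tnfaip6 reached 19.2 CPM and Amhr2 18.2 CPM, both in H3K18R replicate 1. Of 4 sperm genes, Tnp1 was at 0 in every library, and the sum was at most 19.3 CPM. Prm2 made up the early sum, at 12.4 to 19.3 CPM, and was at 1.82 to 6.17 CPM in the late libraries. Early G&N replicate 1 stood apart, with 22647 genes detected against 18695 to 19837 in the other early libraries. H3K18R replicate 2 had the higher oocyte sum of its pair, given above. Nothing says that the libraries of a condition came from separate cultures, so p-values measure the spread between these libraries, which may be technical. Since each library pools whole embryos, a lower level in every embryo and a loss in some of them cannot be told apart.

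**Figure D1:**
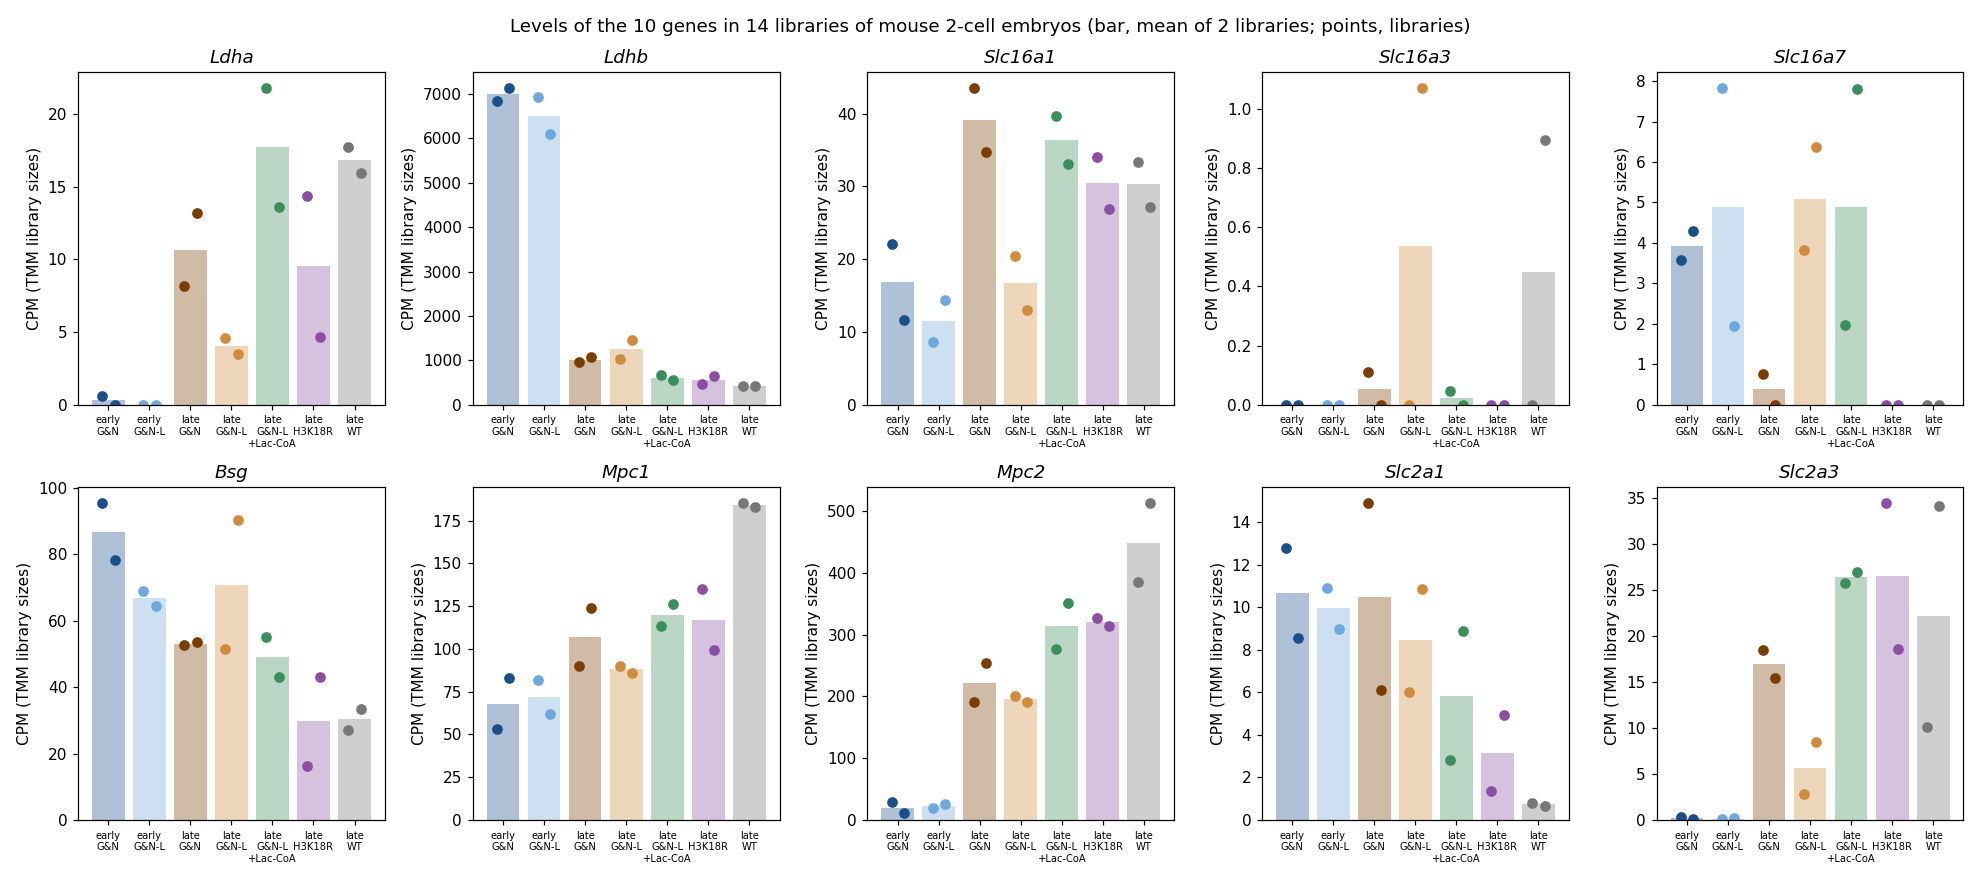
Level of each of the 10 genes (vertical axes, CPM on TMM library sizes, each starting at 0) in the 7 conditions (horizontal axes), where points are libraries and bars the mean of 2. Ldhb stood between 6094 and 7138 CPM in the early libraries and at 1458 CPM or less in the late ones, and the panels of Mpc2 and Slc2a3 show the opposite order of stages.

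In every library except WT replicate 2, where Mpc2 stood higher (513 against 427 CPM), Ldhb had the highest level of the 10. In early embryos its level was 6846 and 7138 CPM in G&N and 6920 and 6094 CPM in G&N-L. These values made up 0.569% to 0.589% of all counts of a library. Per kb of transcript, Ldhb ranked 16th to 19th of all genes in the early libraries. In late embryos it stood at 953 and 1071 CPM in G&N, 1040 and 1458 CPM in G&N-L, 670 and 551 CPM with Lac-CoA, 462 and 638 CPM in H3K18R, and 434 and 427 CPM in WT. All 10 late libraries were below all 4 early ones. Late Ldhb still ranked between 55 and 283 per kb. By condition means, late G&N-L (1249 ± 295 CPM, SD, n = 2) and late G&N (1012 ± 83.5 CPM) overlapped, as did Lac-CoA (610 ± 84.7 CPM) and H3K18R (550 ± 124 CPM). WT (430 ± 4.83 CPM) lay below H3K18R without overlap, and 39% of all genes tested did not overlap between these conditions.

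Ldha was at the other end of the range. In early embryos it had 0 counts in 3 of 4 libraries, and 32 counts (0.628 CPM) in early G&N replicate 1, the library with the most detected genes. In late embryos the level was 8.13 and 13.2 CPM in G&N and 4.58 and 3.47 CPM in G&N-L. It was 21.8 and 13.6 CPM with Lac-CoA, 14.4 and 4.65 CPM in H3K18R, and 17.7 and 16.0 CPM in WT. Every late library was above every early one. Among late conditions the G&N-L pair was the lowest, with both libraries below all others, though 4.58 CPM lay close to the 4.65 CPM of H3K18R replicate 2. Late G&N-L did not overlap late G&N for 43.5% of all genes tested, and did not overlap Lac-CoA for 46.8%. The share of genes separated from all other late libraries was not counted. Per kb, Ldha made up 0 to 0.0088% of the summed Ldha and Ldhb reads in early libraries. It made up 0.815% and 1.17% in late G&N, 0.422% and 0.229% in late G&N-L, 3.04% and 2.32% in Lac-CoA, 2.91% and 0.697% in H3K18R, and 3.78% and 3.47% in WT. Ldhb thus remained over 96% of the summed Ldha and Ldhb reads per kb in every library, a sum that leaves out Ldhc, the isoform known from testis and oocytes, at 34.4 and 48.0 CPM in WT. Over G&N and G&N-L together, the Ldhb share was 99.998% ± 0.0044 (SD) in 4 early libraries and 99.3% ± 0.420 in 4 late libraries, a difference of -0.657 percentage points (exact permutation test, two-sided, p = 0.0286, the smallest p this design allows). Leaving out any 1 early library gave a higher p (exact permutation test, two-sided, p = 0.0571).

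The comparison of late with early embryos asks how these transcripts moved while the embryo switches on its own genes. Both late G&N libraries lay above both early ones for 5 of 9 members and below them for 3. Such a lack of overlap was found for 64.6% of all genes tested. In G&N-L it was 4 above and 1 below of 9, against 62.5% of all genes. Adjusted p-values are from edgeR's quasi-likelihood test with Benjamini-Hochberg adjustment over all genes tested, with a threshold of 0.05. In G&N embryos 3 of the 9 members tested passed, against 13.7% of 19443 genes. This background of 2654 genes fell to 220 without late G&N replicate 1. Ldhb fell by 2.87 on the log2 scale (standard error, SE, 0.26, adjusted p = 0.00689), Mpc2 rose by 3.43 (SE 0.46, adjusted p = 0.0139) and Slc2a3 rose by 6.22 (SE 0.97, adjusted p = 0.0194). All 3 calls were lost without either late G&N library, with adjusted p from 0.0562 to 0.0812, while each fold change kept its direction. Ldha had a fitted log2 fold change of 5.08 (SE 1.74) with an adjusted p of 0.101, and of 0.0118 without early G&N replicate 1, the library that held the only early counts of this gene. At a looser criterion, an unadjusted p under 0.05 and a fold change beyond 0.5 in size (log2), Ldha, Slc16a1 and Bsg joined them, 6 of 9 members against 34.4% of all genes. Without 1 library, 3 to 5 members met it, with Slc16a1 in 1 and Bsg in 0 of 4 such fits.

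In G&N-L embryos, whose libraries are separate from those of G&N, 3 of 9 members passed as well, against 11.8% of 18604 genes. These 2203 genes became 335 without late G&N-L replicate 1. Ldhb fell by 2.44 on the log2 scale (SE 0.19, adjusted p = 0.0060) and Mpc2 rose by 3.03 (SE 0.27, adjusted p = 0.00729). Ldha rose from 0 counts in both early libraries, with an adjusted p of 0.0419, and was at least 46.1-fold higher when the early libraries are set to the limit of 3 counts per library. This call was lost without any 1 of the 4 libraries (adjusted p 0.0631 to 0.184) and, when replicate numbers were used as a block, at an adjusted p of 0.111. That of Mpc2 was lost without late G&N-L replicate 1 (adjusted p = 0.0512), and that of Ldhb held in all 4 of these fits. Slc2a3 had a log2 fold change of 5.12 (SE 1.15, adjusted p = 0.0511), and at the looser criterion 4 of 9 members passed against 32.2% of all genes. With library totals in place of TMM, the median of all genes moved up by 0.38 in the G&N and by 0.37 in the G&N-L comparison, and the fall of Ldhb became 2.47 and 2.08. The interaction, which asks whether the change with stage differed between G&N and G&N-L, was called by edgeR for 0 of 9 members, with 0 at an unadjusted p under 0.05 and so at the looser criterion, against 7.55% of all genes, and 0 by DESeq2. Without 1 library 0 to 1 members met the looser criterion, and without a filter on low counts Ldha and Slc16a7 did.

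**Figure D2:**
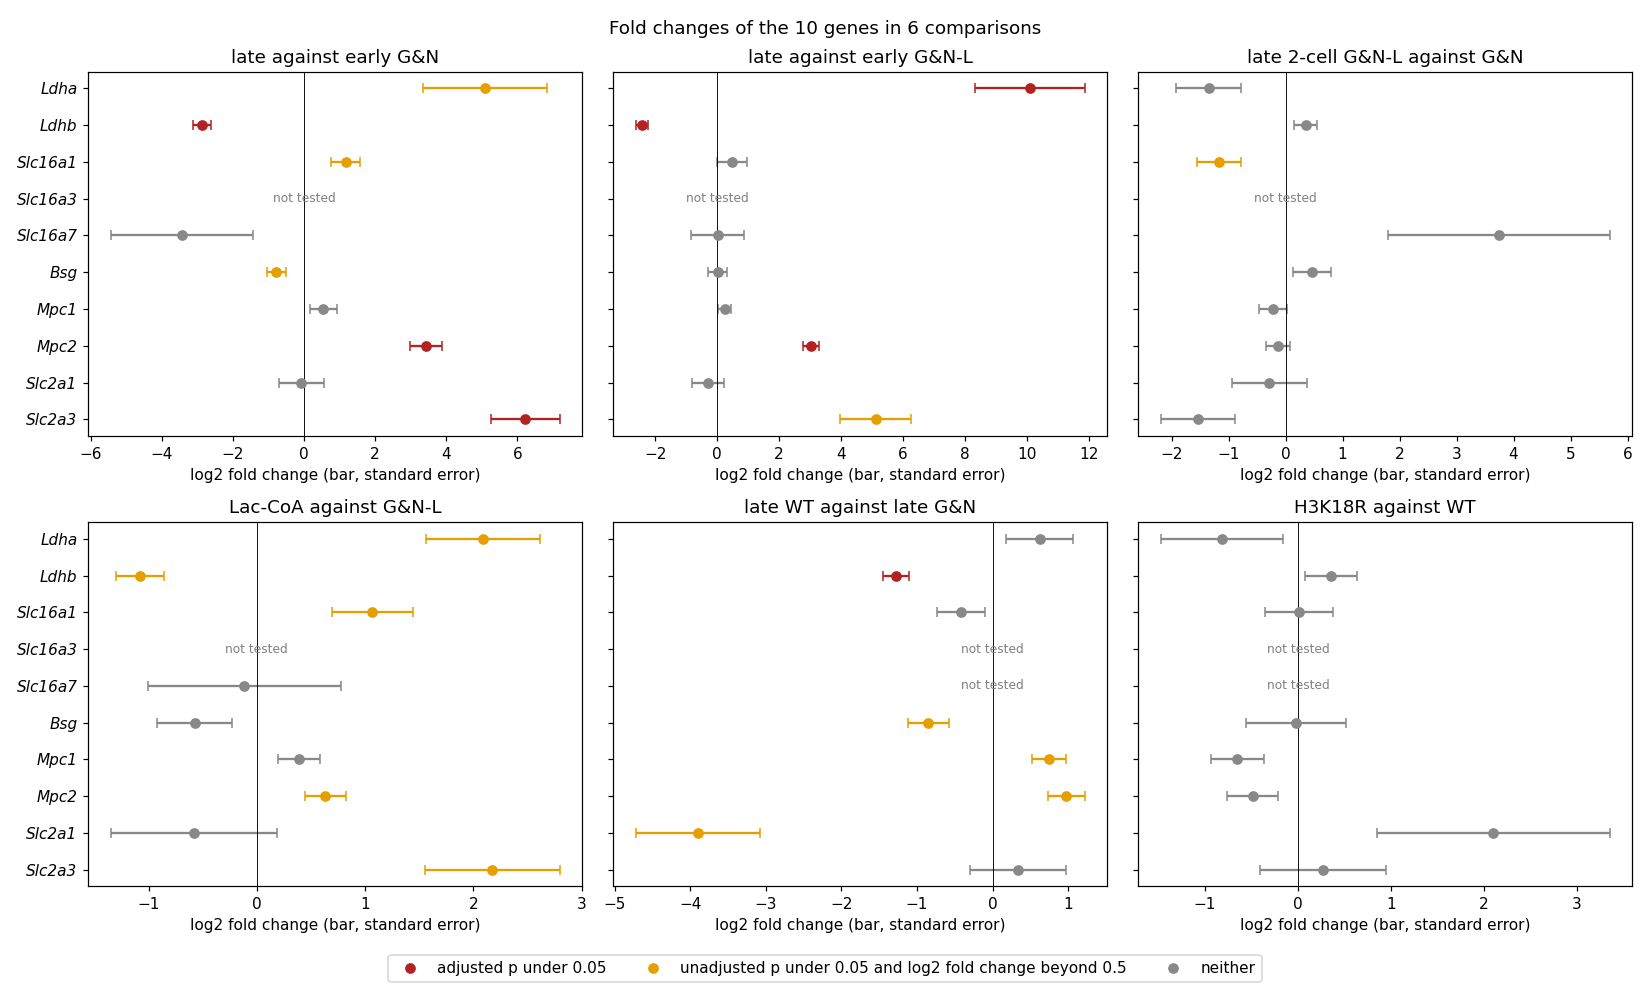
Fitted log2 fold changes (horizontal axes, first condition over second, bars are standard errors) of the 10 genes (vertical axes) in 6 comparisons, with colour giving the test passed. The called members are Ldhb, Mpc2 and Slc2a3 in late against early G&N, Ldha, Ldhb and Mpc2 in G&N-L, and Ldhb in late WT against late G&N. Where Ldha had 0 early counts, the drawn value depends on the prior count and gives no size.

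Among the carriers of lactate and pyruvate, Slc16a1, which encodes the broadly expressed MCT1, had the most reads per kb of the 3 SLC16 members. It made up 72.5% to 100% of their sum, in which other SLC16 genes such as Slc16a6 do not enter. In early embryos its level was 22.1 and 11.6 CPM in G&N and 8.59 and 14.3 CPM in G&N-L. In late embryos it stood at 43.6 and 34.7 CPM in G&N, 20.4 and 13.1 CPM in G&N-L, 39.7 and 33.1 CPM with Lac-CoA, 34.0 and 26.9 CPM in H3K18R, and 33.4 and 27.2 CPM in WT. Late G&N-L lay in the range of the early libraries, and the other 8 late libraries lay above all early ones. Late G&N-L did not overlap late G&N for 43.5% of all genes tested. In late against early G&N the log2 fold change was 1.17 (SE 0.42, adjusted p = 0.110), and in G&N-L it was 0.48 (SE 0.49, adjusted p = 0.595). The order of neighbouring means was not separated by libraries among late G&N, Lac-CoA, H3K18R and WT.

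Slc16a7, which encodes MCT2, a carrier of high affinity for pyruvate, was low and uneven. Its counts were 182 and 189 in early G&N, 311 and 43 in early G&N-L, 28 and 0 in late G&N, 147 and 244 in late G&N-L and 86 and 338 in Lac-CoA. It had 0 counts in all 4 WT and H3K18R libraries, where up to 3 counts per library are allowed by a count of 0. Slc16a3, which encodes MCT4, the carrier of strongly glycolytic cells, had 4, 41, 2 and 29 counts in 4 late libraries (of late G&N, G&N-L, Lac-CoA and WT) and 0 in the other 10, and passed the filter on low counts in none of the comparisons. These limits cover counting error only. Its transcript shares 832 exon bases with Csnk1d on the opposite strand, and how strand was used in counting is not given in the sources used here, so these few counts cannot be assigned to it.

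Bsg, whose product basigin brings MCT1 and MCT4 to the membrane, was at 95.4 and 78.1 CPM in early G&N and 69.1 and 64.5 CPM in early G&N-L. In late embryos it stood at 52.8 and 53.5 CPM in G&N, 51.5 and 90.3 CPM in G&N-L, 55.1 and 43.0 CPM with Lac-CoA, 16.4 and 43.2 CPM in H3K18R, and 27.2 and 33.4 CPM in WT. The G&N pairs of both stages did not overlap, which held for 64.6% of all genes tested. Late G&N-L replicate 2 was as high as the early libraries. The log2 fold change of late against early was -0.77 in G&N (SE 0.26, adjusted p = 0.100) and 0.02 in G&N-L (SE 0.31, adjusted p = 0.977).

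The subunits of the mitochondrial pyruvate carrier, which act as a complex of both, were unequal in level in early embryos. Mpc1 was at 53.2 and 82.8 CPM in early G&N and 82.0 and 62.1 CPM in early G&N-L, and Mpc2 was at 28.8 and 11.7 CPM and at 19.2 and 26.6 CPM. In late embryos Mpc2 reached 191 and 254 CPM in G&N, 200.1 and 191 CPM in G&N-L, 277 and 351 CPM with Lac-CoA, 327 and 313 CPM in H3K18R, and 385 and 513 CPM in WT, above every early library. Mpc1 in late embryos was at 89.8 and 124 CPM in G&N, 90.2 and 86.1 CPM in G&N-L, and 185 and 183 CPM in WT. Its log2 fold change of late against early was 0.55 in G&N (SE 0.39, adjusted p = 0.387) and 0.24 in G&N-L (SE 0.20, adjusted p = 0.520), neither of which passed. Per kb of canonical transcript, the ratio of Mpc2 to Mpc1 was 0.115 to 0.439 in early libraries and 1.66 to 2.56 in late ones. By this length, the subunit with more reads per kb changed from Mpc1 to Mpc2 with stage in G&N and in G&N-L. It was Mpc2 in the 3 conditions sampled late only. The canonical transcripts have 1390 (Mpc2) and 1128 bases (Mpc1), while all exons together cover 8055 and 3495 bases. Which subunit has more reads per kb thus depends on the length used, and the rise of the ratio with stage does not. Mpc1 shares 110 exon bases with the antisense 4930506C21Rik, from which its reads cannot be separated without strand.

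Of the 2 glucose carrier members, the early embryo held Slc2a1 and almost no Slc2a3. Other glucose carrier genes do not enter here, such as Slc2a12, which was at 9.25 to 55.4 CPM in the early libraries. Slc2a1 was at 12.8 and 8.56 CPM in early G&N and 10.9 and 8.98 CPM in early G&N-L, and Slc2a3 had 3 to 19 counts, 0.0683 to 0.373 CPM. In late embryos Slc2a3 was at 18.5 and 15.4 CPM in G&N, 2.84 and 8.51 CPM in G&N-L, 25.8 and 27.0 CPM with Lac-CoA, 34.5 and 18.6 CPM in H3K18R, and 10.1 and 34.2 CPM in WT. Both late G&N-L libraries were below the other 8 late libraries and above the early ones. Late G&N-L did not overlap late G&N for 43.5% of all genes tested, Lac-CoA for 46.8% and early G&N-L for 62.5%. Slc2a1 in late embryos was at 14.9 and 6.09 CPM in G&N, 6.01 and 10.9 CPM in G&N-L, 2.83 and 8.86 CPM with Lac-CoA, 1.34 and 4.96 CPM in H3K18R, and 0.783 and 0.679 CPM in WT. Late G&N and G&N-L overlapped the early range, and WT was below all other libraries. The share of Slc2a3 in the reads per kb of both genes was 0.888% to 3.17% in early libraries, 34.6% and 46.8% in late G&N-L, 58.2% and 74.0% in late G&N, 91.1% and 77.4% in Lac-CoA, 96.7% and 80.9% in H3K18R, and 93.6% and 98.3% in WT. For Slc2a1 the log2 fold change of late against early was -0.07 in G&N (SE 0.63, adjusted p = 0.955) and -0.30 in G&N-L (SE 0.52, adjusted p = 0.777), and it turned to 0.32 and 0.07 with library totals in place of TMM. Slc2a1 shares 249 exon bases with the antisense Gm12868.

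**Figure D3:**
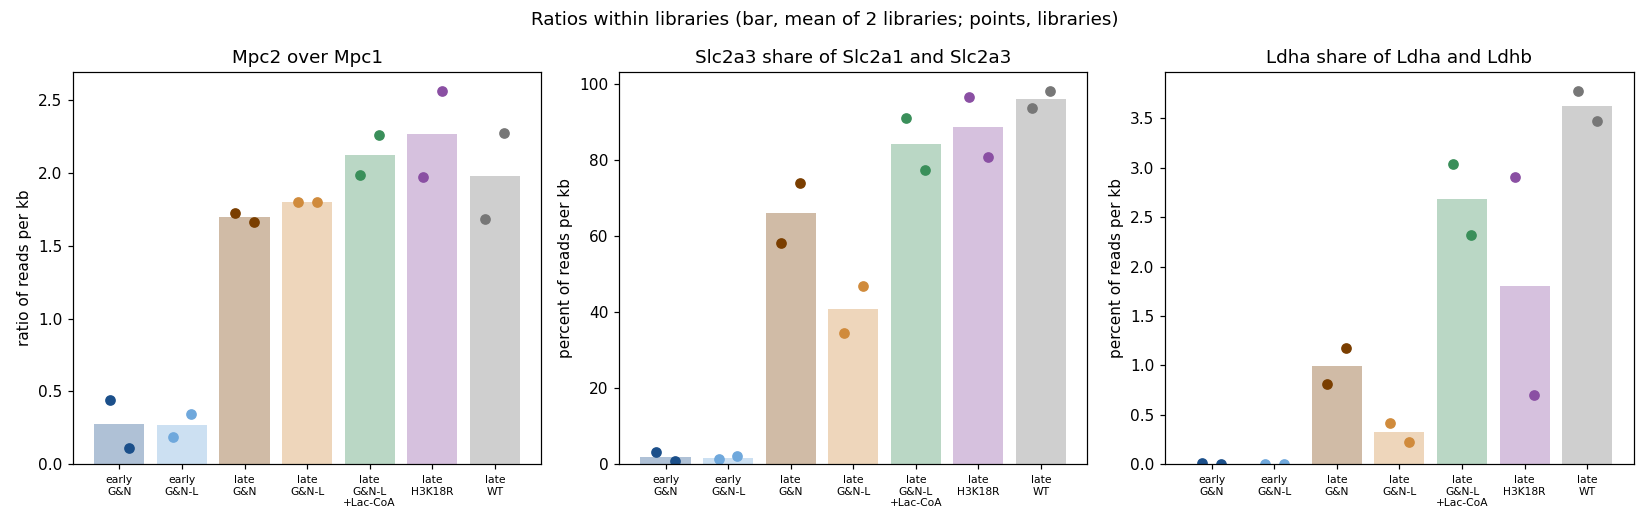
Ratios taken within each library from reads per kb of canonical transcript, by condition (points, libraries; bars, mean of 2; axes start at 0): Mpc2 over Mpc1, the percent of Slc2a3 in Slc2a1 and Slc2a3, and the percent of Ldha in Ldha and Ldhb. All 3 are higher in every late library than in every early one, and late G&N-L is the lowest late condition in the panels of Slc2a3 and Ldha.

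The effect of lactate within inhibited embryos was asked at each stage by G&N-L against G&N. Per the study, lactate removal began at the late zygote stage for both samplings, so early embryos had less time without it. Stage and time without lactate thus cannot be told apart here or in the interaction. In late embryos edgeR called 0 of 9 members at the adjusted threshold, where 0% of 19481 genes were called, and DESeq2 called 0 of 9 members and 934 genes. At the looser criterion 1 of 9 passed, against 11.9% of all genes, which was Slc16a1 at a log2 fold change of -1.18 (SE 0.39, unadjusted p = 0.0251, adjusted p = 0.340). This held in 2 of 4 fits that left out 1 library, with an unadjusted p of up to 0.114, and in the other 2 either Slc16a7 or Slc2a3 passed instead. DESeq2, and edgeR without a filter on low counts, put 3 members past this criterion, Slc16a1, Slc16a7 and Slc2a3, and a filter of at least 10 counts put 2, Slc16a1 and Slc2a3. Slc2a3 had a log2 fold change of -1.54 (SE 0.65, adjusted p = 0.449) and Ldha of -1.35 (SE 0.57, adjusted p = 0.453). For these 3 genes both G&N-L libraries were below both G&N libraries, and for Slc16a7 both were above. A lack of overlap of this kind was found for 4 of 9 members and for 43.5% of all genes tested. The oocyte sum was higher in both G&N-L libraries than in both G&N libraries, and its part in these values was not tested. The log2 fold change of Ldhb was 0.35 (SE 0.21, adjusted p = 0.638), that of Bsg 0.46, of Mpc1 -0.22 and of Mpc2 -0.13, and none of these passed either criterion. In early embryos 0 of 7 members passed by edgeR or DESeq2, and 0 at an unadjusted p under 0.05, against 4.5% of 17343 genes at the looser criterion. The early log2 fold change of Ldhb was 0.01 (SE 0.17), and Ldha and Slc2a3 were too low to test.

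The effect of lactyl-CoA in embryos without lactate was asked by comparing Lac-CoA with G&N-L, which shares the G&N-L libraries with the comparison above, so that the 2 are not independent. Lactyl-CoA and its injection cannot be told apart in this comparison or in the one with G&N. By edgeR 0 of 9 members passed the adjusted threshold, with 0% of 19610 genes called. At the looser criterion 5 of 9 passed against 13.2% of all genes. Ldha was higher by 2.09 on the log2 scale (SE 0.53, unadjusted p = 0.0098), Slc2a3 by 2.17 (SE 0.62, unadjusted p = 0.0162), Slc16a1 by 1.07 (SE 0.37, unadjusted p = 0.0337) and Mpc2 by 0.63 (SE 0.19, unadjusted p = 0.0199). Ldhb was lower, at a log2 fold change of -1.08 (SE 0.22, unadjusted p = 0.00437). The adjusted p of these 5 genes was 0.294 to 0.316. DESeq2 called Ldha, Ldhb and Slc2a3 (adjusted p of 0.0189, 0.000447 and 0.0210) among 1215 genes. Ldhb and Slc2a3 passed the looser criterion in all 4 fits without 1 library, Ldha in 3, and Mpc2 and Slc16a1 in 1 each. The oocyte sum was 14193 and 9876 CPM with Lac-CoA against 16799 and 19223 CPM in G&N-L, and the late 2-cell sum was 3546 and 3674 CPM against 2609 and 3052 CPM. The part of these sums in the result was not tested. With library totals in place of TMM, the median of all genes in this comparison moved up by 0.11.

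Against late G&N, embryos with Lac-CoA differed at the looser criterion in 1 of 9 members, with 8.51% of all genes passing, and in 0 at the adjusted threshold by edgeR or DESeq2. This was Ldhb, at a log2 fold change of -0.64 (SE 0.20, unadjusted p = 0.0224, adjusted p = 0.500), which held in 2 of 4 fits without 1 library. Mpc2 joined it with library totals, at least 10 counts or the replicate block, Slc16a7 without a filter, and both with DESeq2. Slc16a1 had a log2 fold change of -0.02 (SE 0.32), Ldha of 0.83 (SE 0.49), Slc2a3 of 0.72 (SE 0.36) and Mpc2 of 0.59 (SE 0.24). Both Lac-CoA libraries were above both G&N libraries for Ldha, Slc2a3, Mpc2 and Slc16a7 and below them for Ldhb, which is 5 of 9 members against 39.7% of all genes tested.

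Embryos expressing H3K18R were compared with WT embryos. By edgeR 0 of 8 members passed at the adjusted threshold or at an unadjusted p under 0.05, and 0 by DESeq2, against 0.00565% (1 gene) and 6.44% of 17704 genes. The log2 fold change was -0.65 for Mpc1 (SE 0.29), -0.49 for Mpc2 (SE 0.27), -0.82 for Ldha (SE 0.66), 0.36 for Ldhb (SE 0.28) and 2.10 for Slc2a1 (SE 1.25). The H3K18R libraries differed from each other for Ldha (14.4 and 4.65 CPM), Bsg (16.4 and 43.2 CPM) and Slc2a3 (34.5 and 18.6 CPM), and the oocyte sum was 4024 CPM in replicate 1 and 8277 CPM in replicate 2. Without H3K18R replicate 1, 3 members passed the looser criterion, Ldha, Ldhb and Mpc1, and 0 passed the adjusted threshold. Mpc1 and Slc2a1 passed the looser criterion with all 14 libraries in one fit, and Slc2a1 with at least 10 counts in every library.

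WT and late G&N embryos were both taken 54 h after hCG. WT embryos were injected with H3 mRNA, while an injection of G&N embryos is not described. The inhibitor and lactate of the WT medium are not given. Injection and medium cannot be told apart in this comparison. Of 8 members 1 passed the adjusted threshold, against 4.62% of 18986 genes, and 5 the looser criterion, against 28% of all genes. The 877 genes called became 0 without late G&N replicate 1, and 2 to 4 members met the looser criterion without 1 library, with Bsg in 0 and Mpc1 in 1 of 4 such fits. Ldhb was lower in WT, at a log2 fold change of -1.28 (SE 0.17, adjusted p = 0.0413), a call lost without any 1 of the 4 libraries (adjusted p 0.0523 to 0.111). Slc2a1 had a log2 fold change of -3.90 (SE 0.82, adjusted p = 0.0622), Mpc2 of 0.97 (SE 0.24, adjusted p = 0.0805), Mpc1 of 0.75 (SE 0.23, adjusted p = 0.108) and Bsg of -0.85 (SE 0.27, adjusted p = 0.115). DESeq2 called 4 members, Ldhb, Mpc1, Mpc2 and Slc2a1. The oocyte sum was 3641 and 3725 CPM in WT against 13101 and 15022 CPM in G&N, and mitochondrially encoded genes took 10.6% and 11.2% of counts against 6.77% and 6.84%. Their part in these differences was not tested.

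**Figure D4:**
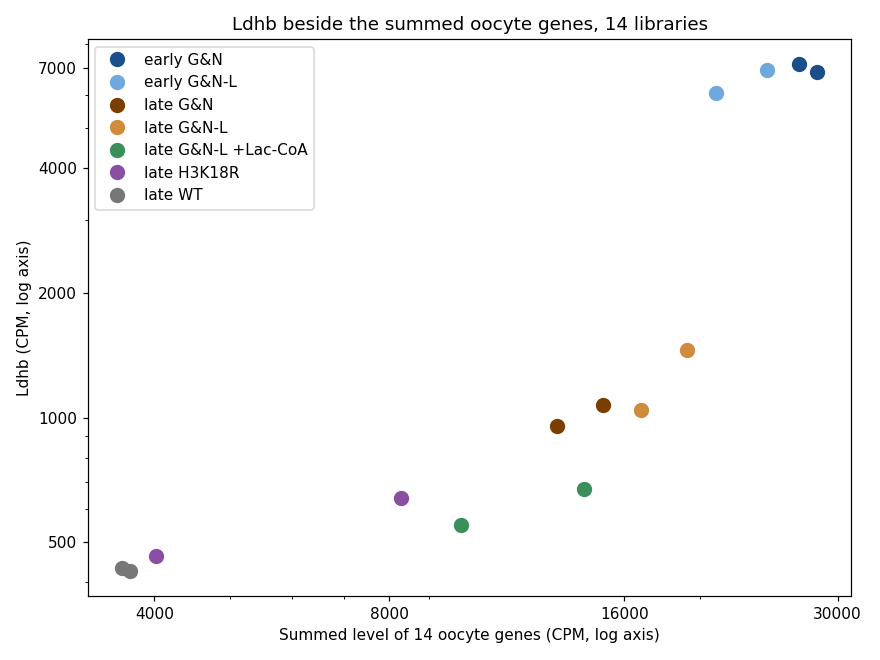
Level of Ldhb (vertical axis, CPM, log scale) beside the summed level of 14 oocyte genes (horizontal axis, CPM, log scale) in the 14 libraries, coloured by condition. The early libraries are highest on both axes and the WT libraries lowest on both, and the Lac-CoA libraries (670 and 551 CPM of Ldhb) have less Ldhb than late G&N.

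The neighbours of these genes in metabolism were described from lists of the pathway. The malate-aspartate and glycerol phosphate shuttles carry the reducing power of cytosolic NADH into mitochondria and so share a substrate with LDH. Of 9 shuttle genes tested, 1 rose and 3 fell from early to late G&N, and 1 rose and 2 fell in G&N-L. The share of all genes called, in either direction, was 13.7% and 11.8% in these comparisons. Mdh2, the mitochondrial malate dehydrogenase, rose by 3.50 on the log2 scale in G&N (SE 0.37, adjusted p = 0.00906) and by 2.67 in G&N-L (SE 0.21, adjusted p = 0.0060). Mdh1, its cytosolic counterpart, fell by 1.86 (SE 0.33, adjusted p = 0.0260) and by 2.16 (SE 0.22, adjusted p = 0.00887). Mdh1 was at 142 to 264 CPM in the 4 early libraries and at 40.0 to 62.8 CPM in late G&N and G&N-L. Mdh2 was at 12.7 to 16.9 CPM and at 111 to 212 CPM. The stages did not overlap for either gene. Within G&N alone 64.6% of all genes tested did not overlap, and within G&N-L alone 62.5%. Slc25a13, an aspartate-glutamate carrier of the same shuttle, fell by 2.07 in G&N (SE 0.35, adjusted p = 0.0229), and Got1, the cytosolic aspartate aminotransferase, fell by 1.34 in G&N-L (SE 0.20, adjusted p = 0.0201).

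Of 13 genes of pyruvate dehydrogenase and its regulators tested in G&N, 1 rose and 1 fell with stage, and of 12 in G&N-L, 1 rose and 2 fell, beside 13.7% and 11.8% of all genes. Pdhx, a structural component of the complex, fell by 2.19 in G&N (adjusted p = 0.00997) and by 1.21 in G&N-L (adjusted p = 0.0493). Pdp2, a phosphatase that activates the complex, rose by 3.67 (adjusted p = 0.0289) and by 1.90 (adjusted p = 0.0413), and Dld, its dihydrolipoyl dehydrogenase, fell by 1.54 in G&N-L (adjusted p = 0.0367). Of 14 glycolytic genes tested in each, 1 passed in G&N, Tpi1, which fell by 1.80 (adjusted p = 0.0474), and 0 in G&N-L by edgeR, where 1 passed the looser criterion. Other SLC16 and sodium-coupled lactate carriers gave 1 gene up and 1 down of 11 in G&N and 0 of 10 in G&N-L, where 3 passed the looser criterion. Slc16a6, an SLC16 member described as a ketone body carrier, was at 0.136 to 2.39 CPM early and 37.6 to 67.6 CPM in late G&N and G&N-L, and its log2 fold change was 6.05 in G&N (adjusted p = 0.0281) and 5.12 in G&N-L (adjusted p = 0.0517). Slc5a12, a sodium-coupled lactate carrier, fell by 2.92 in G&N (adjusted p = 0.0218). Of the regulators, Vhl, which targets hypoxia-inducible factors for destruction, rose by 4.97 in G&N (adjusted p = 0.0185) and by 3.21 in G&N-L (adjusted p = 0.0262), and was higher in WT than in late G&N by 2.28 (adjusted p = 0.0413). Egln3, a hydroxylase that marks the same factors for VHL, rose in G&N-L from 0 CPM in both early libraries to 4.34 and 9.06 CPM (adjusted p = 0.0294), and was at 1.59 and 1.12 CPM in early and 6.79 and 1.65 CPM in late G&N. These were 1 of 12 regulators tested in G&N and 2 of 12 in G&N-L.

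In late G&N-L against G&N, 0 genes of these lists passed the adjusted threshold by edgeR. At the looser criterion Pdha1, the catalytic alpha subunit of pyruvate dehydrogenase, had a log2 fold change of -1.36 (SE 0.34, adjusted p = 0.324), Pdp2 of -1.11 (SE 0.29, adjusted p = 0.331), Pgam1, a glycolytic mutase, of -2.004 (SE 0.66, adjusted p = 0.340) and Slc25a13 of 1.07 (SE 0.34, adjusted p = 0.339). Pdha1 was at 38.4 and 61.9 CPM in G&N and at 17.9 and 19.6 CPM in G&N-L, against 15.01 to 26.4 CPM in the early libraries. In Lac-CoA against G&N-L, 0 genes passed the adjusted threshold by edgeR either, and Mdh2 led the looser criterion, at 198 and 221 CPM with Lac-CoA and 111 and 111 CPM in G&N-L (log2 fold change 0.87, SE 0.18, adjusted p = 0.294). Pgk1, a glycolytic kinase, had a log2 fold change of 0.83 (adjusted p = 0.309), Pdhb of 0.89 (adjusted p = 0.308), Dlat of -1.20 (adjusted p = 0.317) and Got2 of -1.38 (adjusted p = 0.305). In late G&N-L against G&N the median log2 fold change was -0.22 for the 9 members and -0.02 for all genes. It was -0.19 for 9 shuttle genes and for 12 genes of pyruvate dehydrogenase, -0.04 for 16 glycolytic genes, 0.19 for 11 other lactate carriers, 0.56 for 8 other glucose carriers and 0.36 for 14 oocyte genes.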

How the data were processed

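Counts of RNA-seq reads per gene were analysed for 14 libraries of mouse 2-cell embryos. Per the labels, the authors used FastQC, Trim Galore, HISAT2 on mm39 and featureCounts, and deposited raw counts of reads without normalization. Treatment of strand and of multi-mapped reads, and the annotation release, are not given in the sources used here, and reads of Ldha may be shared with its processed pseudogenes. The study states 3 replicates, and 2 per condition are in the table. The columns named K18A were taken as the H3K18R libraries, whose titles carry that mutation.

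The members and all gene lists were chosen with earlier results of these data known. Each comparison was fitted on its 4 libraries (8 for the interaction) with edgeR 4.0.16 in R 4.3.3: default low-count filter, TMM, quasi-likelihood test, Benjamini-Hochberg adjustment. Fitted fold changes use a prior count of 0.125. Levels are CPM on TMM library sizes of all 14 libraries, and levels per kb use the Ensembl canonical transcript length in GENCODE on GRCm39, which matched 56236 of 56923 identifiers after version numbers were dropped. Where a symbol was listed more than once, the row with the larger total was used. Named were all members and, per list and comparison, up to 3 genes with the smallest p past the adjusted threshold, or past the looser criterion where none was. Replicates of a condition differed by more than counting noise (chi-square per degree of freedom 47.8 to 195). Alternatives were DESeq2 1.42.0, its size factors, library totals, other filters, all libraries in one fit, a replicate block and each library left out. Scripts were tested on simulated counts. The upstream window of Ldhb and 1 gene of the lists are not reported here.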

Additional observations from a re-analysis of the deposited data

Results flagged for a closer look

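In the 4 early libraries the Ldhb share of Ldha and Ldhb reads per kb was 100% in 3 and 99.9912% in early G&N replicate 1. That library is separated from the other 3 by the whole range of the group, since it alone held Ldha counts. With the other 3 at the ceiling of 100%, any Ldha count in 1 library gives this separation, and the group holds both G&N and G&N-L. The same library had the most detected genes of the early libraries, 22647, and the part of this in the Ldha counts was not tested.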

How the results depend on the processing

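With 2 libraries per condition, counts of called members followed the tool and the libraries kept. DESeq2 called 3 members in Lac-CoA against G&N-L, 5 in late against early G&N and 4 in WT against late G&N. In WT against late G&N, 3 were called without a filter, 3 with at least 10 counts in every library and 2 with all 14 libraries in one fit. Leaving out 1 library gave 0 to 4 called members in late against early G&N, 1 to 2 in G&N-L and 0 in WT against late G&N, and moved the difference in Ldhb share between -0.801 and -0.486, with p = 0.0571 by exact permutation without any early library. With all 14 libraries in one fit, Ldha alone met the looser criterion in early G&N-L against G&N, and 3 members did in Lac-CoA against G&N-L. Replicate numbers did not pair the libraries (correlation of deviations -0.04 to 0.007). With the replicate block the call of Ldha in late against early G&N-L was lost (log2 fold change 10.15, adjusted p = 0.111), and no other member call changed. The union of all exons as the length, chosen after seeing the data, changed the Ldhb share by less than its SD. This length was not applied to the other ratios. The cause of these moves was not tested.

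Directions turned for small, uncalled changes (log2). In early G&N-L against G&N, Ldhb was -0.017 with library totals, -0.0042 with no filter and -0.10 with all libraries, and Slc2a1 -0.019 and -0.10 with totals and all libraries. With totals, Slc16a7 was 0.0082 in Lac-CoA against G&N-L, and Slc16a1 was 0.020 and Bsg 0.019 in Lac-CoA against G&N. Bsg in H3K18R against WT was 0.0089 with DESeq2 and with its size factors, 0.029 with totals and 0.0062 with at least 10 counts. Slc2a1 in late against early G&N was 0.034 with DESeq2 and with its size factors, 0.32 with totals and 0.10 with at least 10 counts, and 0.066 with totals in G&N-L. Bsg in late against early G&N-L was -0.030 with the replicate block.

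Leaving out 1 library at a time turned these ranges across 0. In early G&N-L against G&N they were -0.12 to 0.15 (Ldhb), -0.91 to 0.021 (Slc16a1), -0.83 to 1.02 (Slc16a7), -0.19 to 0.65 (Mpc1), -0.092 to 1.0005 (Mpc2) and -0.14 to 0.23 (Slc2a1), and in the late comparison -0.40 to 0.059 (Mpc1), -0.29 to 0.12 (Mpc2) and -0.76 to 0.56 (Slc2a1). In Lac-CoA against G&N-L they were -1.39 to 0.55 (Slc16a7) and -1.60 to 0.012 (Slc2a1), and against G&N -0.21 to 0.16 (Slc16a1), -0.22 to 0.13 (Bsg) and -1.82 to 0.022 (Slc2a1). In H3K18R against WT they were -0.18 to 0.18 (Slc16a1), -0.88 to 0.51 (Bsg) and -0.35 to 1.39 (Slc2a3), and in WT against late G&N -0.79 to 0.97 (Slc2a3). In late against early G&N they were -0.89 to 0.42 (Slc2a1), in G&N-L -0.65 to 1.26 (Slc16a7), -0.38 to 0.39 (Bsg) and -0.73 to 0.083 (Slc2a1), and in the interaction -1.33 to 6.23 (Ldha), -1.10 to 0.078 (Mpc2) and -0.78 to 0.53 (Slc2a1).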

Other observations

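The genes whose levels over the 14 libraries were most like those of the members were found by Pearson's r of log2 CPM among 7205 genes, as a description over libraries that share stage and treatment. Ldhb was most like Fbxw15 (0.995) and Fbxw28 (0.992), F-box genes. Mpc2 was most like Snrnp25 (0.994) and Mak16 (0.993), Ldha like Psat1 (0.990) and Btbd18 (0.980), and Slc2a3 like Tob1 (0.984) and Prdx5 (0.979). Mpc1 was most like Zfp639 (0.970) and Gosr1 (0.953), Bsg like Icosl (0.969) and Abhd5 (0.960), and Slc2a1 like Mier2 (0.961) and Tent5c (0.947). Slc16a7 was most like 2810403D21Rik (0.948) and Chic2 (0.939) and Slc16a1 like Ctr9 (0.947) and Laptm4a (0.908). For Slc16a3, at 0 in 10 libraries, the highest values were 0.686 (Slc35d2) and 0.667 (Scaf11).

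Of the other LDH genes, Ldhc, the isoform known from testis and oocytes, was at 0.956 to 6.71 CPM in the early libraries, 5.46 to 14.3 CPM in late G&N and G&N-L, and 34.4 and 48.0 CPM in WT. Its log2 fold change in WT against late G&N was 1.90 (standard error 0.40, adjusted p = 0.0622, edgeR). Arrdc4, an arrestin-domain gene that responds to glucose, was at 12.5 and 19.5 CPM in Lac-CoA and at 1.59 and 1.29 CPM in late G&N (log2 fold change 3.56, standard error 0.59, adjusted p = 0.500, edgeR). Slc2a8, a glucose carrier of intracellular membranes, was at 0 in both late G&N libraries, at 1.80 and 2.51 CPM in late G&N-L and at 0.989 and 2.40 CPM in Lac-CoA.

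Genes of the pathway lists that the naming rule took and that are not described above met the looser criterion only (edgeR). From early to late G&N the log2 fold change was -3.26 for Slc2a9 (adjusted p = 0.114) and -1.85 for Slc2a12 (adjusted p = 0.132), glucose carrier family genes, and Slc2a7 was at 0 early and at 2.19 and 1.19 CPM late. In G&N-L it was -3.11 for Slc2a12 (adjusted p = 0.129) and -1.52 for Slc5a12 (adjusted p = 0.0750). Slc2a8, Slc16a14 and Eno3 were at 0 in both early G&N-L libraries, with Slc16a14 at 3.30 and 0.679 CPM and Eno3, an enolase, at 3.23 and 1.91 CPM in late ones.

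In WT against late G&N the values were -1.75 for Dlat, -1.57 for Pdhx, 1.41 for Pdp2, 1.27 for Mdh2 and 0.87 for Pgk1, with adjusted p of 0.0569 to 0.109. Hkdc1, a hexokinase-related gene, was at 0 in late G&N and at 1.74 and 5.34 CPM in WT, and Slc2a8 reached 4.35 CPM in WT. Slc2a13 was at 2.22 and 2.55 CPM in late G&N and at 0 in late G&N-L, Lac-CoA and WT. In H3K18R against WT, Mdh2 was at -0.81 (adjusted p = 0.735).

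With Lac-CoA against G&N-L, Pdhx was at -0.98 (adjusted p = 0.309) and Arnt, a partner of hypoxia-inducible factors, at 0.71 (adjusted p = 0.349), and Mycl was at 1.69 and 1.64 CPM in G&N-L and at most 0.0461 CPM with Lac-CoA. Against G&N, Slc16a11 was at 1.60, Emb, a partner of monocarboxylate carriers, at 1.19 and Vhl at 1.52, with adjusted p of 0.500 to 0.505, and Slc2a5 was at 1.93 and 0.554 CPM against 0. In early G&N-L against G&N, Pdhx was at -0.53 and Slc25a12 at -2.11. Slc16a9 (0.707 and 3.64 CPM in early G&N), Eno3 and Egln3 were at 0 in early G&N-L, and Mycn was at 0 in early G&N. In the interaction, Pdha1 was at -1.21, Pdhx at 0.94, Pdp2 at -1.81 and Vhl at -1.82 (adjusted p = 0.650 for each), and Eno3, Mycn and Egln3, with groups at 0, are given no size.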
